A study of Mus musculus with 6 samples.

Results

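Neutrophil granule proteins are the enzymes, iron-binding proteins and antimicrobial peptides that neutrophils carry into injured tissue, and their transcripts were followed here in ischaemic mouse hind limb muscle with and without the histidine decarboxylase gene Hdc. The members were picked by gene symbol and granule class, and all 10 had a row among the 25572 genes of the deposited expression table. The azurophil class held Elane, Mpo, Prtn3 and Ctsg, the specific class Ltf, Camp, Ngp and Lcn2, and the gelatinase class Mmp8 and Mmp9. The HDCKO group was 3 Hdc-/- mice and the WT group 3 wild type mice, each giving 1 library of total muscle RNA, and no animal is described as pooled. Every mouse in both groups had undergone hind limb ischaemia (HLI), an operation that cuts blood flow to the leg, and the RNA was taken on day 3 after it. The sources used here state neither strain nor age, nor how the Hdc allele was made, and no unoperated mice are described in them. Histidine decarboxylase makes histamine from histidine, in mast cells, basophils and several myeloid cells.

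Granules form one after another as a neutrophil matures in the bone marrow, and a protein enters the granule that is being built while its gene is transcribed. Azurophil proteins are made at the promyelocyte stage, specific granule proteins at the myelocyte stage and gelatinase granule proteins later, so that neutrophils in a tissue are known for carrying much azurophil protein and little of its mRNA. Lcn2 and Mmp9 are also transcribed by macrophages and other cells, and Mmp8 is often placed in specific granules in human neutrophils, although it was kept here in the gelatinase class.

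The sequence before the transcription start gives 1 feature that the choice of members did not use. RefSeq promoters (build GRCm38.p6) were matched by symbol for 9 of the 10 members, all but Mmp9, and each was placed in GRCm39 by its single exact match. Motifs of 3 factors of granulocyte development, chosen after these promoters had been seen, were searched on both strands in the 250 bases before the RefSeq start. That start differs from the GENCODE start of the same gene for every matched member but Ctsg. They were AGGAAGT, a core bound by PU.1, TTNNGNAA, a core bound by C/EBP factors, and CAACNG, a core bound by MYB. The neighbouring azurophil genes Elane, which encodes neutrophil elastase, and Prtn3, which encodes proteinase 3, are shown first because both hold the PU.1 core followed by the MYB core in the same 80-base window, from 120 to 41 bases before the start. The MYB core of Elane lies inside the GENCODE span of the gene, which starts at chr10:79722081. Capitals mark the motif matches on these strands (+), chr10:79722026-79722105 for Elane and chr10:79715381-79715460 for Prtn3 (GRCm39).
Elane: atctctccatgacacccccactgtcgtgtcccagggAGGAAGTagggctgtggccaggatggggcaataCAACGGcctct
Prtn3: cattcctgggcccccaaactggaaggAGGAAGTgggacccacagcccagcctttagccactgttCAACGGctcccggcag

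The other members with a PU.1 or C/EBP core are shown by short stretches around 1 match each. As the motifs were chosen with these promoters seen, differences in letters between the classes are a description. The stretch of Mmp8 shows only a C/EBP core, although its promoter also held the PU.1 core. Mpo (myeloperoxidase, chr11:87684377-87684403, + strand) and Ctsg (cathepsin G, chr14:56340221-56340247, - strand) held the PU.1 core. Ltf (lactotransferrin, chr9:110848275-110848302, + strand), Ngp (neutrophilic granule protein, chr9:110248728-110248755, + strand), Lcn2 (lipocalin 2, chr2:32277950-32277977, - strand) and Mmp8 (neutrophil collagenase, chr9:7558401-7558428, + strand) held the C/EBP core. Each is written 5′ to 3′ on the strand of its gene, with the core in capitals; in Ngp, Lcn2 and Mmp8 the core reads on the opposite strand.
Mpo: ggagagagagAGGAAGTtgcctttgtc
Ctsg: gaggaagaaaAGGAAGTagtcacctgt
Ltf: ggcaggcctaTTGGGCAAtagggtgggg
Ngp: tcctggtttaTTGCCCAAacctccttgc
Lcn2: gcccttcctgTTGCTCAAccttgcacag
Mmp8: taggcagaagTTGCTCAAgatgtagctt

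The PU.1 core was found in 4 of 4 azurophil promoters, 0 of 4 specific promoters and the Mmp8 promoter, and in 7.8% of all 27025 promoters searched. The C/EBP core was found in 0 of 4 azurophil promoters, 3 of 4 specific promoters and the Mmp8 promoter, and in 36.9% of all promoters. The MYB core was found in 3 of 4 azurophil and 2 of 4 specific promoters, and in 29.3% of all promoters. In the Lcn2 promoter a MYB core on the opposite strand overlaps the C/EBP core. The Lcn2 promoter searched lies wholly inside the GENCODE span of the gene. The promoter of Camp, which encodes the cathelicidin antimicrobial peptide, held none of the 3 in this window. These are matches of letters, and binding was not measured.

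Expression was deposited as FPKM, mapped fragments scaled by transcript length and by library depth, which can be compared between genes. The step between low values put the depth at about 34400000, 29500000 and 37600000 fragments in HDCKO replicates 1 to 3 and 31900000, 37100000 and 37100000 fragments in WT replicates 1 to 3. Hdc itself had 1.22, 2.46 and 2.52 FPKM in the HDCKO libraries and 7.49, 7.72 and 8.17 FPKM in the WT libraries, so that its transcript was lower in each library labelled HDCKO but present. The fit across genes used limma on log2(FPKM + 0.5), took the 13288 genes whose FPKM averaged 0.5 or more across all 6 libraries, and applied Benjamini-Hochberg adjustment with a threshold of 0.05. It called 42.6% of these genes lower and 17.8% higher in HDCKO muscle, with a median log2 change of -0.50 that moved to -0.04 when the libraries were scaled by the median of ratios. All 9 markers of mature muscle fibres were higher in HDCKO muscle, with a median log2 change of 6.82 and summed levels of 43510 to 79540 FPKM in HDCKO against 378.2 to 1468 FPKM in WT libraries. Their part in the results on granule genes was not tested.

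Among the 12 neutrophil surface and cytosol markers, all were detected in each library, and 11 were lower in HDCKO muscle, with a median log2 change of -5.51; 2 of the 12, Ly6g and Trem1, passed the filter through their WT levels alone. Their summed level was 35.5, 85.4 and 104 FPKM in HDCKO and 4201, 14790 and 2664 FPKM in WT libraries. HDCKO replicates 2 and 3 stood apart from HDCKO replicate 1 in lymphocyte transcripts: the B cell gene Cd79a had 0.0870, 31.5 and 87.1 FPKM in HDCKO replicates 1 to 3 and 0.469, 0.592 and 0.269 FPKM in WT replicates 1 to 3. The 4 T and B cell markers summed to 0.182, 46.4 and 118 FPKM in HDCKO and to 1.01, 1.48 and 0.621 FPKM in WT libraries, and the keratinocyte markers Krt5, Krt14 and Krt1 had 0.461, 0.414 and 0.360 FPKM in HDCKO replicate 2 and at most 0.115 FPKM elsewhere. Results on granule genes are therefore also given with HDCKO replicate 1 alone against WT. In bulk muscle RNA, fewer neutrophils and less RNA per neutrophil cannot be told apart.

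Granule transcripts were lower in HDCKO than in WT muscle wherever they were abundant enough to test. Of the 10 members, 6 passed the filter, and all 6 were called lower: 1 of 1 tested azurophil gene, 3 of 3 specific genes and 2 of 2 gelatinase genes, beside the 42.6% of all tested genes called lower. In 7 of the 10, each HDCKO library lay below each WT library, which was also true of 51.4% of all tested genes. The HDCKO means of Camp and Ngp were under the filter, so these genes entered the test through their WT levels alone, and the count over tested members is not a count over granule genes. The 10 members summed to 7.9, 25.3 and 23.7 FPKM in HDCKO and to 398, 965 and 248 FPKM in WT libraries.

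**Figure D1:**
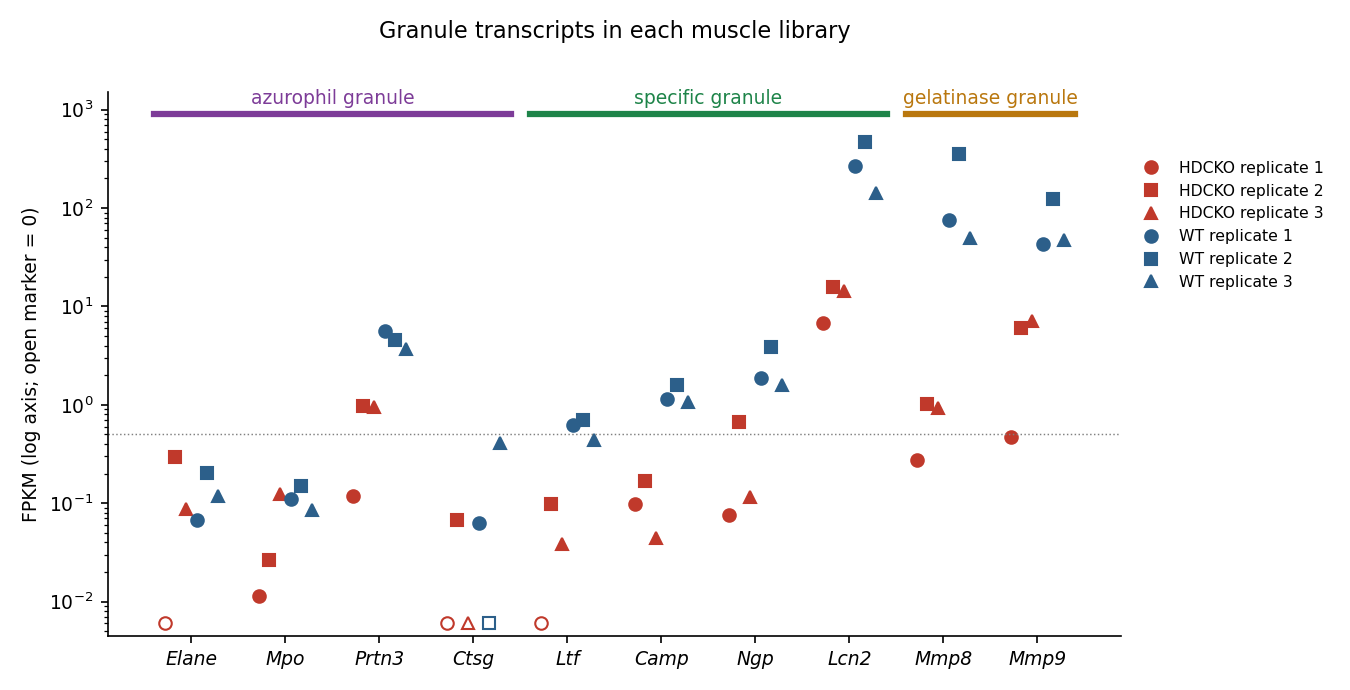
FPKM (log axis) of the 10 granule genes in the 3 HDCKO libraries (red) and 3 WT libraries (blue), with markers for replicates, open markers for a listed 0 and a dotted line at 0.5 FPKM, the level of the filter on means. HDCKO points lie below all WT points for Prtn3 and for the specific and gelatinase genes, while those of Elane, Mpo and Ctsg overlap WT near the lower end of the axis.

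Among the azurophil serine proteases, Prtn3 was the only member that passed the filter. It had 0.119, 0.975 and 0.955 FPKM in HDCKO and 5.59, 4.54 and 3.68 FPKM in WT libraries, which rest on 4, 28 and 35 fragments in HDCKO and 174, 164 and 133 fragments in WT. The WT values were close together and each lay above every HDCKO value. The means were 0.683 ± 0.488 FPKM in HDCKO and 4.61 ± 0.958 FPKM in WT (SD, n = 3 each), a log2 change of -2.20 with an SE of 0.38 (95% interval -3.12 to -1.28, limma adjusted p = 0.00585). Prtn3 lies at chr10:79710310-79719008 (GENCODE, GRCm39, + strand), where its 5′ end overlaps the 5′ end of Plppr3 on the other strand. As for every matched member but Ctsg, the RefSeq start used for the promoter differs from this GENCODE start. The promoter searched ends at chr10:79715500, inside the GENCODE span and beyond the end of Plppr3 at 79710506. The overlap thus concerns only the longer GENCODE 5′ end. The sources used here do not say whether counting used strand, so the share of reads from either gene in that overlap is uncertain. Plppr3 itself, which encodes a phospholipid phosphatase-related protein, was at 0.0776, 0.581 and 0.390 FPKM in HDCKO and 1.15, 1.09 and 0.989 FPKM in WT libraries.

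The other azurophil members were at the lower end of detection in both groups. Elane had 0, 0.295 and 0.0866 FPKM in HDCKO and 0.0681, 0.205 and 0.117 FPKM in WT libraries, or 11 fragments in all in HDCKO and 13 in WT. The groups overlapped, the exact permutation test gave p = 0.9, and the log2 difference of -0.03 had a 95% interval of -0.48 to 0.43 in the fit without a filter, on the log2(FPKM + 0.5) scale, which shrinks changes of low genes. Mpo, which makes hypochlorous acid, had 0.0114, 0.0266 and 0.125 FPKM in HDCKO and 0.111, 0.148 and 0.0847 FPKM in WT libraries, or 15 fragments in HDCKO and 31 in WT. HDCKO replicate 3 lay within the WT values and HDCKO replicates 1 and 2 lay below them (exact permutation p = 0.3, interval -0.37 to 0.06). Ctsg had 0, 0.0679 and 0 FPKM in HDCKO and 0.0628, 0 and 0.405 FPKM in WT libraries, and 15 of its 17 WT fragments came from WT replicate 3 (exact permutation p = 0.7, interval -0.84 to 0.28). A count of 0 allows up to 3 fragments, which is 0.0948 FPKM for Elane in HDCKO replicate 1 and 0.0874, 0.0799 and 0.0810 FPKM for Ctsg in HDCKO replicates 1 and 3 and WT replicate 2. For Elane, Mpo and Ctsg the groups overlapped. The intervals above hold for FPKM with 0.5 added, which is more than these genes reached in any library. They therefore do not limit the fold change of FPKM itself, and the few fragments cannot give its size.

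Neighbouring azurophil genes differed in level. Elane starts 3073 bases downstream of Prtn3 on the same strand (chr10:79722081-79724051), yet in WT libraries Prtn3 had 3.68 to 5.59 FPKM and Elane 0.0681 to 0.205 FPKM. The next gene, Cfd, which encodes the adipocyte serine protease complement factor D, lies 2617 bases further on and had 146, 1012 and 325 FPKM in HDCKO and 234, 144 and 108 FPKM in WT libraries (log2 change 1.24, limma adjusted p = 0.169). Within 100 kb of any member, 40 protein-coding neighbours were tested, of which 17 were lower and 5 higher in HDCKO muscle. Their 42.5% share of lower calls stands beside 42.6% for all genes, and their median log2 change of -0.46 beside -0.50.

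The specific granule genes spanned the widest range of levels. Lcn2, which binds bacterial iron carriers, had 6.85, 15.9 and 14.3 FPKM in HDCKO and 271, 474 and 143 FPKM in WT libraries. Even the lowest WT library was several times the highest HDCKO library, and the HDCKO mean of 12.4 ± 4.85 FPKM was 4.18% of the WT mean of 296 ± 167 FPKM (SD, n = 3 each). The log2 change was -4.45 with an SE of 0.51 (95% interval -5.68 to -3.21, limma adjusted p = 0.00159). Lcn2 stayed the most abundant of the 10 in every library of both groups.

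The other specific granule genes were low. Ngp, a cystatin-related protein of mouse granules, had 0.0751, 0.672 and 0.114 FPKM in HDCKO and 1.86, 3.88 and 1.60 FPKM in WT libraries, from 31 and 305 fragments in all. HDCKO replicate 2 and WT replicate 2 were the high libraries of their groups, and the log2 change was -1.90 with an SE of 0.40 (limma adjusted p = 0.0101). Camp had 0.0970, 0.170 and 0.0444 FPKM in HDCKO and 1.15, 1.57 and 1.08 FPKM in WT libraries, and the HDCKO values rest on 2, 3 and 1 fragments against 22, 35 and 24 in WT. The Camp groups were far apart for their spread, with means of 0.104 ± 0.063 FPKM in HDCKO and 1.27 ± 0.268 FPKM in WT (SD, n = 3 each) and a log2 change of -1.55 (SE 0.18, limma adjusted p = 0.00174). Ltf, which binds iron, had 0, 0.0989 and 0.0388 FPKM in HDCKO and 0.617, 0.708 and 0.442 FPKM in WT libraries, or 12 and 171 fragments. Its mean fell under the filter, so it was not tested in the main fit, but the groups did not overlap (exact permutation p = 0.1, the smallest that 3 against 3 can give). Without a filter the log2 change of Ltf was -0.99 (95% interval -1.30 to -0.69, limma adjusted p = 0.00504). The added 0.5 FPKM shrinks the log2 changes of these low genes. The HDCKO means of Ngp, Camp and Ltf were 11.7, 8.18 and 7.79% of their WT means.

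**Figure D2:**
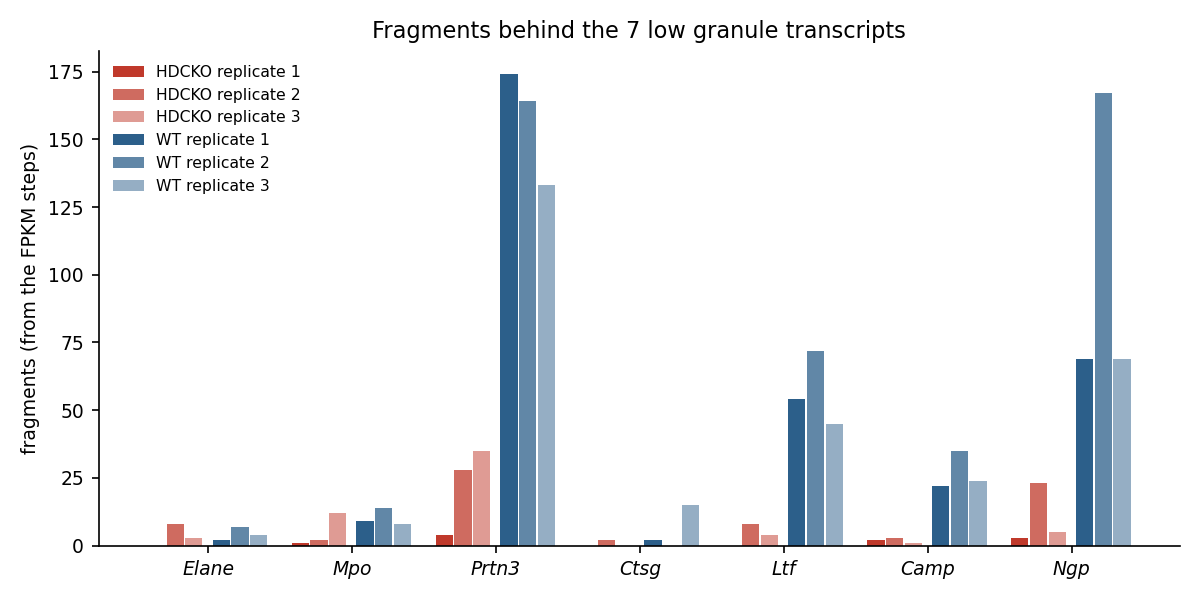
Fragments behind the 7 granule genes under 6 FPKM in every library, recovered from the steps between FPKM values, in HDCKO (red) and WT (blue) libraries. Prtn3, Ngp, Ltf and Camp stand on 81 to 471 fragments in the 3 WT libraries together, whereas Elane, Mpo and Ctsg stand on 13 to 31.

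The gelatinase class held the member with the largest change. Mmp8, which cuts fibrillar collagen, had 0.272, 1.01 and 0.921 FPKM in HDCKO and 74.9, 356 and 49.5 FPKM in WT libraries. The HDCKO mean of 0.734 ± 0.402 FPKM was 0.458% of the WT mean of 160 ± 170 FPKM (SD, n = 3 each), and WT replicate 2 alone carried most of that WT spread. Without WT replicate 2 the WT mean was 62.2 FPKM, of which the HDCKO mean was 1.18%, and the log2 change was -5.70 (limma adjusted p = 0.00237). The log2 change was -6.54 with an SE of 0.74 (95% interval -8.35 to -4.74, limma adjusted p = 0.00154). Mmp9, which cuts denatured and basement membrane collagen, had 0.474, 6.05 and 7.07 FPKM in HDCKO and 43.1, 125 and 47.2 FPKM in WT libraries. HDCKO replicate 1 lay far below HDCKO replicates 2 and 3, and the lowest WT library was still above the highest HDCKO library. The log2 change was -4.13 with an SE of 0.87 (95% interval -6.23 to -2.03, limma adjusted p = 0.0104), on means of 4.53 ± 3.55 FPKM in HDCKO and 71.6 ± 45.9 FPKM in WT (SD, n = 3 each). Without WT replicate 2 the WT mean of Mmp9 was 45.1 FPKM and the log2 change -3.65 (limma adjusted p = 0.0387).

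With HDCKO replicates 2 and 3 left out, a step added after the data were seen, each of the 6 tested members was still called lower. The 1 HDCKO library that remains is then assumed to vary as the WT libraries do.

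**Figure D3:**
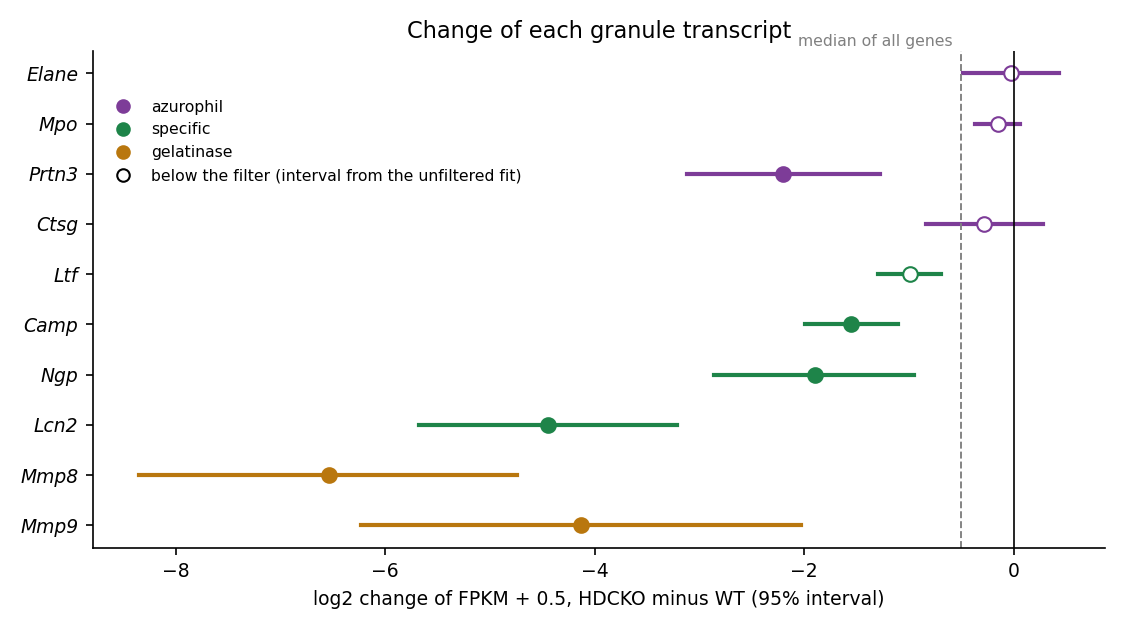
Log2 change of FPKM + 0.5 with its 95% interval, HDCKO minus WT, for each granule gene by class; filled points were tested in the main fit, and open points lie under the filter, with intervals from the fit without it. Mmp8, Lcn2 and Mmp9 lie furthest to the left of the dashed median of all genes at -0.50, and the intervals of Elane, Mpo and Ctsg include 0. The added 0.5 FPKM shrinks the change of low genes. The HDCKO mean was 6.33% of the WT mean for Mmp9, 8.18% for Camp and 7.79% for Ltf.

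The order of levels differed between the groups. In HDCKO muscle the order of means was Lcn2, Mmp9, Mmp8, Prtn3, Ngp, Elane, Camp, Mpo, Ltf and Ctsg, and no pair of neighbours in it had separate ranges. In WT muscle it was Lcn2, Mmp8, Mmp9, Prtn3, Ngp, Camp, Ltf, Ctsg, Elane and Mpo, with separate ranges between Mmp9 and Prtn3, Ngp and Camp, Camp and Ltf, and Ltf and Ctsg. Mmp9 was above Mmp8 in 3 of 3 HDCKO libraries, and Mmp8 was above Mmp9 in 3 of 3 WT libraries.

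Mmp8 was set against each of the other 5 tested members inside each library, by the log2 ratio of their FPKM values with no pseudocount. Mmp8 was picked for this after its change had been seen and has the largest fall of the 10, which fixes the sign of the mean differences, so the ratios are a description and carry no test. Mmp9 over Mmp8 was 0.80, 2.58 and 2.94 in HDCKO and -0.80, -1.51 and -0.07 in WT libraries. Lcn2 over Mmp8 was 4.65, 3.98 and 3.96 in HDCKO and 1.85, 0.41 and 1.53 in WT libraries. Prtn3 over Mmp8 was -1.19, -0.05 and 0.05 in HDCKO and -3.74, -6.29 and -3.75 in WT libraries. Mmp9 and Lcn2 were thus 2.90 and 2.93 higher relative to Mmp8 in HDCKO on the log2 scale, and 2.41 and 2.10 higher with 0.5 FPKM added to each value.

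By class, the specific genes made 88.9, 66.7 and 61.3% of the summed FPKM of the 10 members in HDCKO and 68.9, 49.7 and 59.2% in WT libraries, nearly all of it Lcn2. The gelatinase genes made 9.46, 27.9 and 33.7% in HDCKO and 29.6, 49.8 and 39.1% in WT libraries. The azurophil genes made 1.66, 5.39 and 4.93% in HDCKO and 1.46, 0.507 and 1.73% in WT libraries. Each class overlapped between the groups in these shares. Among single members, Mmp8 made 3.45, 3.99 and 3.89% in HDCKO and 18.8, 36.9 and 20.0% in WT libraries, lower in HDCKO without overlap. Prtn3, at 1.51, 3.85 and 4.03% in HDCKO and 1.40, 0.470 and 1.49% in WT libraries, was higher in HDCKO without overlap. Its share in HDCKO replicate 1 rests on 4 fragments and was barely above that of WT replicate 3. Mpo had 0.145, 0.105 and 0.529% in HDCKO and 0.0278, 0.0154 and 0.0342% in WT libraries, also without overlap. Its HDCKO shares rest on 1, 2 and 12 fragments, and its FPKM overlapped between the groups. A share also rises when the other members fall more.

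Set against the neutrophil markers of the same library, the members moved in different directions. Mmp8 was 0.768, 1.18 and 0.886% of the summed FPKM of the 12 neutrophil markers in HDCKO and 1.78, 2.41 and 1.86% in WT libraries, below WT in each. Lcn2 was 19.3, 18.7 and 13.8% in HDCKO and 6.45, 3.20 and 5.38% in WT libraries, above WT in each. Prtn3 was 0.336, 1.14 and 0.919% in HDCKO and 0.133, 0.0307 and 0.138% in WT libraries, also above WT in each. Ngp ran the same way, on 3, 23 and 5 fragments in HDCKO replicates 1 to 3. For Camp the HDCKO values rest on 2, 3 and 1 fragments. Its 0.0427% in HDCKO replicate 3 was barely above the 0.0405% of WT replicate 3, so its direction is uncertain. Mmp9 was 1.34, 7.09 and 6.80% in HDCKO and 1.02, 0.843 and 1.77% in WT libraries, which overlap. The calcium-binding genes S100a8 and S100a9 make up most of that sum. The monocyte and macrophage markers summed to 197.8 to 752.4 FPKM in HDCKO and 686.2 to 1264 FPKM in WT libraries, and the adipocyte markers to 55.3 to 472 FPKM in HDCKO and 136 to 233 FPKM in WT libraries. Their part in these shares was not tested.

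**Figure D4:**
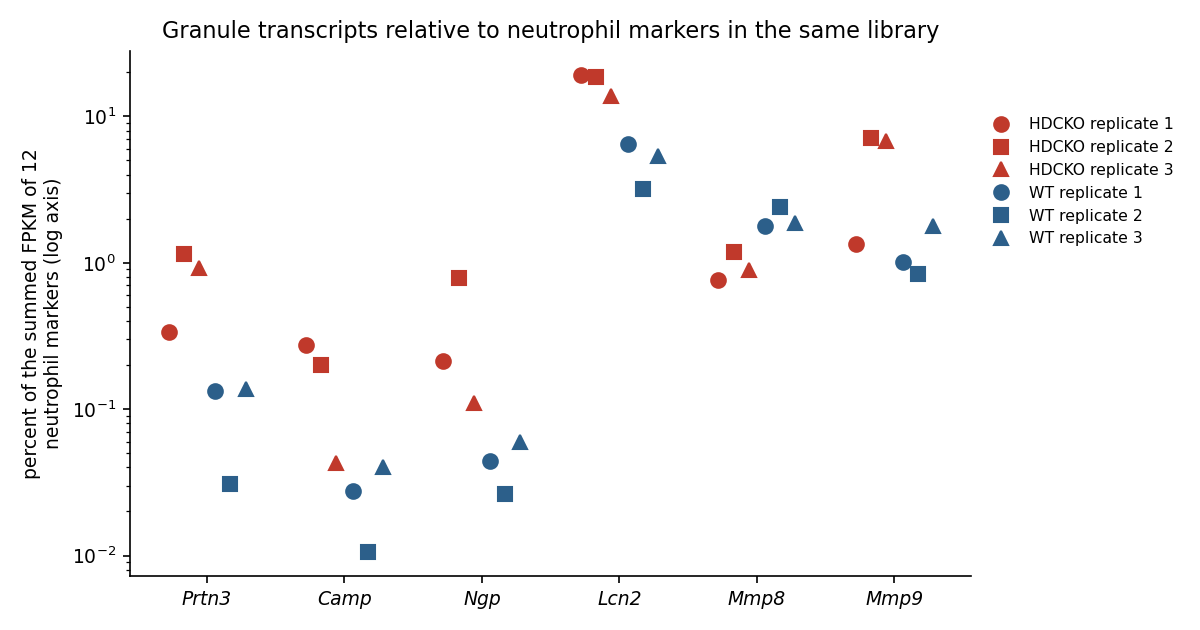
FPKM of the 6 tested granule genes as a percent of the summed FPKM of 12 neutrophil surface and cytosol markers in the same library (log axis), in HDCKO (red) and WT (blue) libraries. Mmp8 lies at 0.768 to 1.18% in HDCKO, below its 1.78 to 2.41% in WT, while Lcn2 and Prtn3 lie above their WT values.

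The spread among WT libraries also differed between members. WT replicate 2 was the highest WT library for Mmp8, Mmp9, Lcn2, Ngp, Camp, Ltf, Elane and Mpo, and the highest-to-lowest ratio among WT libraries was 7.19 for Mmp8, 3.30 for Lcn2, 2.89 for Mmp9, 2.42 for Ngp and 1.46 for Camp. For Prtn3 it was 1.52, with WT replicate 1 the highest. All 12 neutrophil markers were highest in WT replicate 2, with ratios of 5.93 for S100a8 and 13.4 for Ly6g, the surface marker of mouse neutrophils. Among HDCKO libraries, replicate 1 was the lowest for Mmp8, Mmp9, Lcn2, Ngp and Prtn3, by as much as 14.9 times for Mmp9.

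The genes with the most similar patterns were taken by the root mean square difference of centred log2(FPKM + 0.5) values over the 6 libraries. For Mmp8 they were S100a8 (0.104), S100a9 (0.173) and the cytokine gene Il36g (0.336). For Lcn2 they were the interleukin receptors Il1r2 (0.297) and Il1rl1 (0.332) and the MAX-binding repressor Mxd1 (0.298), and for Mmp9 they were Ifitm1 (0.364), Wfdc21 (0.376) and Wfdc17 (0.385). For Prtn3 they were Plekhn1 (0.112), Ninj1 (0.149), which acts in plasma membrane rupture, and the arrestin gene Arrb1 (0.169). The added 0.5 FPKM also weighs on other distances. In HDCKO replicate 1, Mmp8, Mmp9 and Prtn3 were at 0.272, 0.474 and 0.119 FPKM. Il36g was at 0.0353, 0.226 and 0.307 FPKM in HDCKO replicates 1 to 3. The added value also shrinks the change of Mmp8, which was -6.54 on the log2 scale and -7.19 with 0.1 FPKM added. The HDCKO mean was 0.458% of the WT mean for Mmp8 and 0.793% for S100a8. The small distances of Mmp8 therefore do not mean an equal fall, and its share of the neutrophil marker sum, given above, was lower in HDCKO libraries. For Camp and Ngp, whose HDCKO means lie under the pseudocount of 0.5 FPKM, the added value shrinks the change, and no gene is named as similar in pattern.

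Other genes of the same granules were described by lists. For comparison with this and all further lists, 42.6% of all tested genes were called lower and 17.8% higher. The median log2 change of all tested genes was -0.50. Of 5 tested azurophil and promyelocyte genes, 3 were lower and 0 higher, with a median log2 change of -1.58. The proteoglycan core Srgn, which packs granule proteases, was at 7.40, 19.6 and 34.0 FPKM in HDCKO and 252, 595 and 181 FPKM in WT libraries (log2 change -4.10, limma adjusted p = 0.00475). Ctsc, the peptidase that activates granule serine proteases, fell by 2.08 on the log2 scale (limma adjusted p = 0.0121), and Cd63, a granule membrane tetraspanin, averaged 117 ± 51.9 FPKM in HDCKO and 312 ± 45.6 FPKM in WT (SD, n = 3 each, limma adjusted p = 0.013, not past the threshold without HDCKO replicate 2). Lyz2, a lysozyme that macrophages also make, was at 174, 494 and 1457 FPKM in HDCKO and 1436, 1425 and 1635 FPKM in WT libraries (log2 change -1.58, limma adjusted p = 0.104). The promyelocyte genes Prss57 and Ms4a3 had at most 0.108 FPKM in any library of either group and were not tested. Without HDCKO replicate 3, 5 of the 5 tested genes were lower.

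Of 9 tested genes among other specific granule genes, 8 were lower and 0 higher, with a median log2 change of -3.23. Of these, 3 (Olfm4, Cd177 and Stfa1) passed the filter through their WT levels alone, and Fcnb and Bpi did not pass it. Chil3, a chitinase-like protein, was at 0.346, 2.24 and 13.7 FPKM in HDCKO and 221, 481 and 124 FPKM in WT libraries (log2 change -6.21, limma adjusted p = 0.00567). The pentraxin Ptx3 averaged 8.29 ± 4.80 FPKM in HDCKO and 337 ± 57.5 FPKM in WT (SD, n = 3 each) (log2 change -5.40, limma adjusted p = 4.47e-04). Hp, which binds free haemoglobin, fell by 3.23 and Olfm4, a glycoprotein of a subset of neutrophils, by 3.40 on the log2 scale (limma adjusted p = 0.00498 and 0.00669). Cybb, the catalytic subunit of the phagocyte oxidase, was at 2.30, 7.70 and 33.6 FPKM in HDCKO and 20.3, 26.6 and 24.3 FPKM in WT libraries, which overlap (limma adjusted p = 0.193). Bpi was at or near 0 in all 6 libraries. Among WT libraries, Ptx3 and Hp were highest in replicate 1 and the other tested genes of this list in replicate 2. The neutrophil markers were all highest in WT replicate 2, as given above. Which cells made these transcripts was not tested.

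All 7 other gelatinase granule and secretory vesicle genes were tested and lower, with a median log2 change of -4.47, and 2 of the 7, Mmp25 and Fpr1, passed the filter through their WT levels alone. The formyl peptide receptor Fpr1 had 0.132, 0.128 and 0.884 FPKM in HDCKO and 42.7, 79.2 and 34.2 FPKM in WT libraries (log2 change -5.91, limma adjusted p = 3.88e-04). Its relative Fpr2, also a receptor for the Camp peptide, fell by 5.60, the sheddase Adam8 by 5.25 and the integrin chain Itgam by 4.47 on the log2 scale (limma adjusted p = 0.00322, 0.00777 and 0.00716).

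Of 6 tested transcription factors of granulocyte development, 4 were lower and 0 higher, with a median log2 change of -1.57. The share of all tested genes called lower was 42.6%. Without HDCKO replicate 2 or WT replicate 2 the count of lower factors was 2. Cebpb, which acts in emergency granulopoiesis, fell by 1.55, Cebpe, needed for specific granules, fell by 1.59, Spi1, which encodes PU.1, by 3.32 and Runx1 by 2.43 on the log2 scale (limma adjusted p = 0.00343, 0.00975, 0.0152 and 0.0249). Cebpe passed the filter through its WT level alone and was at 0.0241, 0.0281 and 0.418 FPKM in HDCKO and 0.907, 1.41 and 2.10 FPKM in WT libraries. Spi1 did not pass without HDCKO replicate 2 or without WT replicate 2, and Runx1 did not pass without HDCKO replicate 2 or without any 1 WT library. The early factors Gfi1 and Myb were under the filter, at most 0.154 and 0.978 FPKM in HDCKO and 0.104 and 0.257 FPKM in WT libraries.

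The inhibitors of the granule proteases did not move one way. Of 9 tested, 3 were lower and 2 higher, beside 42.6% and 17.8% of all tested genes. The median log2 change was -0.55 against -0.50 for all tested genes, and without HDCKO replicate 3 the count lower was 5. Timp1, an inhibitor of Mmp8 and Mmp9, was at 2.94, 7.39 and 35.1 FPKM in HDCKO and 761, 779 and 431 FPKM in WT libraries (log2 change -6.01, limma adjusted p = 0.003). Slpi, which inhibits elastase and cathepsin G, fell by 4.83 and Serpina3n by 2.97 on the log2 scale (limma adjusted p = 0.00495 and 0.00472). Timp3 was at 85.5, 97.0 and 70.8 FPKM in HDCKO and 40.7, 33.9 and 49.4 FPKM in WT libraries (log2 change 1.03, limma adjusted p = 0.00887), and Timp4 rose by 1.90 (limma adjusted p = 0.0111). Timp3 and Timp4 stayed higher in all 16 alternative fits.

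The median log2 change of 6 tested receptors and uptake genes of granule proteins was -1.83. Beside 42.6% of all tested genes, 4 of these 6 were lower and 0 higher. They were Fpr1 and Fpr2, counted above as well, Lrp1, an endocytic receptor for proteases bound to inhibitors, and P2rx7, a receptor reported to respond to human cathelicidin. Lrp1 fell by 2.20 (limma adjusted p = 0.00531) and P2rx7 by 1.46 on the log2 scale (limma adjusted p = 0.0382), and macrophages are known to express both. Slc22a17, a receptor for lipocalin 2, was at 0.839, 0.856 and 0.709 FPKM in HDCKO and 1.27, 0.804 and 1.16 FPKM in WT libraries, which overlap (limma adjusted p = 0.224). P2rx7 did not pass when the libraries were scaled by the median of ratios (log2 change -1.05).

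Markers of other cell types moved beside the granule genes, and 42.6% of all tested genes were lower. Of 11 monocyte and macrophage markers, 6 were lower (median log2 change -1.43), and this count was 2 under each other scaling of the libraries, 1 when HDCKO replicate 2 or WT replicate 3 was left out and 2 when WT replicate 1 was. Of 7 tested mast cell markers, 2 were lower, with a median of -0.14. The lower ones were Kit (log2 change -2.36, limma adjusted p = 0.00706) and Fcer1a (log2 change -1.24, limma adjusted p = 0.00276). The mast cell proteases Cpa3, Cma1 and Tpsb2 overlapped between groups. Of the 7, 2 (Fcer1a and Mrgprb1) passed the filter through their WT levels alone. Of 3 tested platelet markers, 3 were lower (median -4.34), and of 5 erythroid markers 5 were lower (median -2.65), a count that was 1 with median-of-ratios scaling. Dropping HDCKO replicate 2 or 3 left 2 of the 5 erythroid markers lower, dropping WT replicate 2 left 0 and dropping WT replicate 3 left 1. Eosinophil markers were under the filter, with summed levels of 0.0372 to 0.540 FPKM in HDCKO and 1.18 to 2.47 FPKM in WT libraries. Their part in the results on granule genes was not tested.

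**Figure D5:**
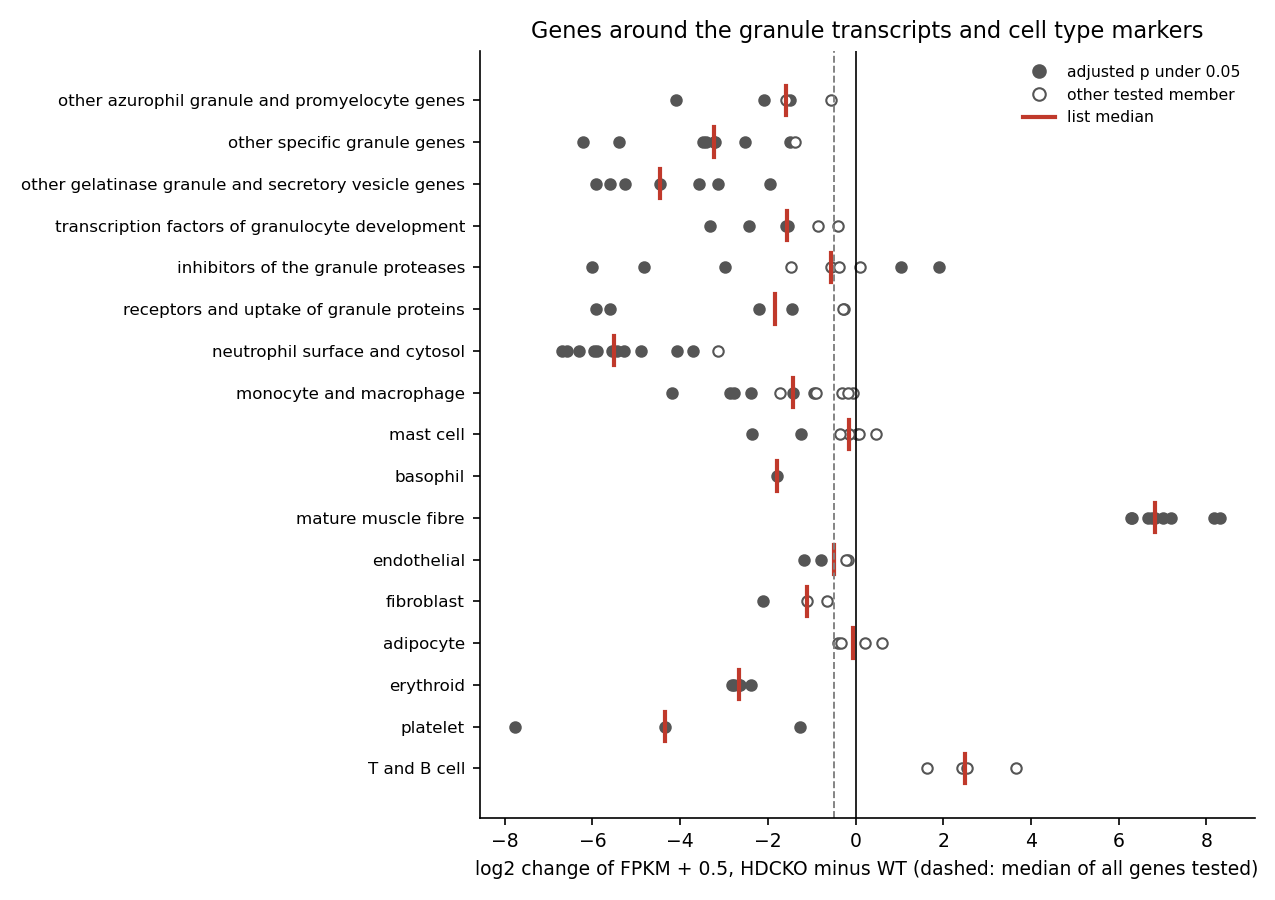
Log2 change of FPKM + 0.5, HDCKO minus WT, of each tested gene in the lists around the granule genes and in the lists of cell type markers; filled points passed an adjusted p of 0.05, open points did not, and red bars are list medians. The lists of specific granule genes, gelatinase granule and secretory vesicle genes and neutrophil markers have medians of -3.23, -4.47 and -5.51, while the muscle fibre list lies at 6.82.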

How the data were processed

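RNA of 6 muscles was sequenced, 3 HDCKO and 3 WT. The authors deposited 1 table of FPKM values per gene and library; the submitters' processing notes name FastQC 0.11.9, HISAT2 2.1.0, STAR 2.7.11b, HTSeq 0.11.2, DESeq2 1.22.2 and build GRCm39, with no roles. The sources used here do not say whether strand was used in counting. The FPKM values were tested with limma 3.58.1 in R 4.3.3 (trend, two-sided) on log2(FPKM + 0.5), which was tested on simulated data. Fragments were recovered from the steps between FPKM values: 3886 of 4151 low genes (93.6%) were whole within 0.03 fragments. Floors and fragments cover counting error only. P-values measure the spread between these mice. Promoters came from RefSeq (GRCm38.p6), positions from GENCODE M39 (GRCm39).

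The members and all lists were chosen with earlier results of these data known. Named were all members, Hdc, up to 4 genes per list by smallest p, the 3 nearest patterns per tested member (not given for Camp and Ngp) and tested neighbours within 100 kb. Named beyond that rule, after values were seen, were untested or overlapping list members and Cd79a. Alternatives were other pseudocounts, filters, scalings, sample weights, a replicate block and leaving out libraries. An alternative sum of neutrophil markers is not reported here.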

Additional observations from a re-analysis of the deposited data

How the results depend on the processing

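Prtn3, Camp, Ngp, Lcn2, Mmp8 and Mmp9 were called lower in HDCKO muscle in each alternative fit with more than 1 library per group. The ranges given next cover all 16 alternative fits. They include the fit of HDCKO replicate 1 alone, added after the data were seen, which gave -5.17 for Lcn2, -6.03 for Mmp9 and -3.03 for Prtn3. The log2 change ranged from -7.19 to -5.70 for Mmp8, -5.17 to -3.93 for Lcn2, -6.03 to -3.18 for Mmp9, -3.03 to -1.77 for Prtn3, -2.95 to -1.21 for Ngp and -2.78 to -1.03 for Camp, and the highest adjusted p of any was 0.0387, for Mmp9. The number of all genes lower was 5658, against 3496 with median-of-ratios scaling and 3607 with fibre and mitochondrial genes left out of the library sum. Leaving out 1 library each gave 2502 to 7266 genes lower, with 2502 when HDCKO replicate 2 was absent and 3019, 3179 and 2813 when WT replicate 1, 2 or 3 was; the cause was not tested. Of all calls, 29.5% were higher as deposited, 50.0% with median-of-ratios scaling, 43.8% with quantile normalization and 46.9% with fibre and mitochondrial genes left out. Replicate numbers were not taken as pairing the mice: deviations of same-numbered libraries correlated at 0.122, 0.067 and 0.138, and HDCKO replicate 2 correlated more with WT replicate 1 (0.112). A fit with the replicate block called 5089 genes lower and 2081 higher, and 6 granule members lower. The monocyte and macrophage count of 6 was 2 under each scaling and 1 when HDCKO replicate 2 was left out. In some fits without 1 library, Cyba, Itgb2, Mmp25, Stfa1, Spi1, Runx1, P2rx7 and Cd63 kept their sign but did not pass. The values of Elane, Mpo and Ctsg rest on 2 to 31 fragments a group.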
